A study of Rattus norvegicus with 8 samples.

Results

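Pyramidal cell field CA3 of the rat hippocampus was compared with field CA1 in control slice cultures, thin explants of brain that are kept alive in a dish. The comparison used the 6 of the 8 arrays of the study whose titles name a CA1 or a CA3 control, with all probe sets except the manufacturer's AFFX controls. There were 3 CA1 control arrays and 3 CA3 control arrays, and each array held RNA from 15 rat slice cultures from which the field had been subdissected, at 7 days. A single CA1 lesion array and a single CA3 lesion array, also from 15 cultures at 7 days, served to ask whether the field difference is present in them too. Their values enter neither the field means nor the spread of the control comparison, but they do bear on the brightness filter and on how the variances follow intensity. The labels name no strain, sex, animal age or added agent, do not say what the lesion was or from which event the days run, and do not say whether arrays of a group came from separate animals, so p-values reflect nothing but the spread among these arrays, which may be technical. Pooling of cultures hides the spread between single cultures.

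CA1 and CA3 pyramidal neurons are the excitatory output cells of neighbouring stretches of the same cell layer. CA3 neurons receive mossy fibres from the dentate gyrus, excite one another through recurrent collaterals and drive CA1 through the Schaffer collaterals, and CA1 neurons project on to the subiculum. Each field is known for its own set of transcription factors, adhesion and guidance molecules, calcium handling proteins and ion channels. In such pieces of tissue, fewer cells of a type and less RNA per cell cannot be told apart.

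Values are the deposited signal intensities of each probe set as log2(intensity + 16), called log2 intensity here, and a difference is the mean of the 3 CA3 control arrays minus the mean of the 3 CA1 control arrays on that scale. The added 16 makes a fold change smaller than the true one for dim probe sets. The median intensity of an array lay between 560 and 814, and log2 values of any pair of arrays correlated at 0.834 to 0.908 across probe sets. The 3'/5' signal ratio of Gapdh, which rises as RNA degrades, was 3.71 to 5.0 in the CA1 controls and 3.75 to 3.93 in the CA3 controls. On the lesion arrays it was 4.65 to 5.23. The same ratio of beta-actin was 14.5 to 22.2 in the CA1 controls and 15.0 to 21.4 in the CA3 controls. The part of these ratios in the results was not tested.

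Marker genes of each field were set beside the field labels. These lists were written with earlier results of these data known, so they are not an independent check of the dissection. Of 7 measured CA1 pyramidal markers, 7 were lower on average in CA3, with a median difference of -2.29 (-2.97 without CA3 control 1), and 4 of them passed the test described next: Pou3f1, Fibcd1, Mpped1 and Gpr161. Their summed intensity ran from 61020 to 119628 on the CA1 control arrays and from 8261 to 12488 on the CA3 control arrays. Pou3f1, a POU-domain transcription factor, gave log2 intensities of 13.66, 12.33 and 11.96 on CA1 controls 1 to 3 and of 7.98, 8.39 and 8.02 in CA3 controls 1 to 3. All 3 CA1 arrays were thus far above all 3 CA3 arrays. Of 7 measured CA3 pyramidal markers, 6 were higher on average in CA3 and Nectin3 and Cpne4 passed the test, with a median over the list of 0.87. Their summed intensity was 20665 to 31933 in CA1 and 45003 to 56741 in CA3. The 10844 genes measured by at least 1 tested probe set had a median difference of -0.03, and 45.6% of them were higher in CA3. Of all these genes, 0.332% passed as higher and 0.286% as lower in CA3.

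**Figure D1:**
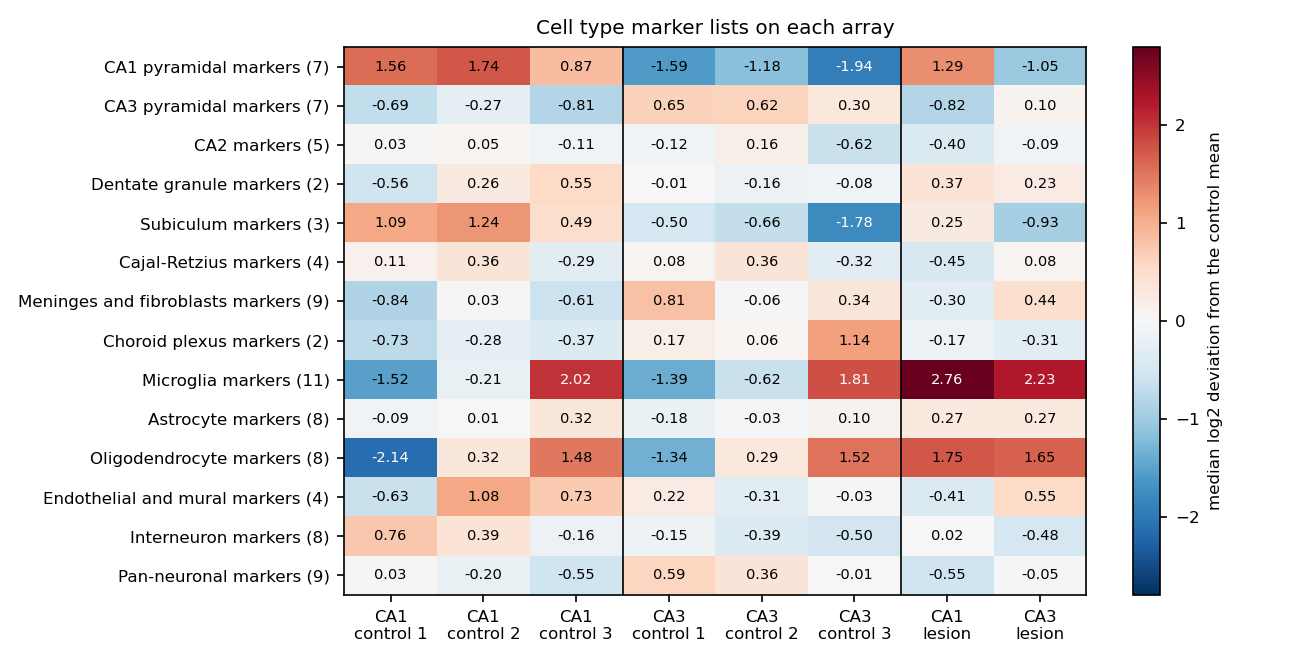
Median deviation of each cell type marker list (rows, number of measured genes in parentheses) from its mean over the 6 control arrays, in log2 units, on each of the 8 arrays (columns); black lines separate CA1 controls, CA3 controls and lesion arrays. CA1 markers are positive on the CA1 controls (0.87 to 1.74) and negative on the CA3 controls (-1.94 to -1.18), while microglia markers differ between control numbers in both fields and are highest on the lesion arrays (2.76 and 2.23).

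Markers of other cell types were compared in the same way, with no test of the lists. Of 9 measured markers of meninges and fibroblasts, the coverings of the brain, 8 were higher on average in CA3. All 9 were above the brightness limit, with a median of 0.75 (0.30 without CA3 control 1). Their summed intensity was 19402 to 26919 in CA1 and 35872 to 50936 in CA3. That sum includes Ptgds, which read 14.05 to 14.24 in log2 on the CA3 controls and 6.94 to 9.31 on the CA1 controls. A sum without Ptgds was not formed. The median deviation of the list, which a single gene moves less, overlapped between the fields. It ran from -0.84 to 0.03 on the CA1 controls and from -0.06 to 0.81 on the CA3 controls. Pan-neuronal markers were higher on average in CA3 for 9 of 9 genes, with a median of 0.46 (0.28 without CA1 control 3 and 0.77 without CA3 control 3) and a summed intensity of 253134 to 354482 in CA1 and 372259 to 504131 in CA3. Microglia markers had a median of -0.35, but their summed intensity varied from 8393 to 119490 within the CA1 controls and from 8636 to 99725 within the CA3 controls. Control 1 was the lowest and control 3 the highest of each field for these markers, as also for the 8 oligodendrocyte markers, and the microglia median changed sign when CA3 control 1, CA1 control 3 or CA3 control 2 was left out (0.65, 0.84 and 0.02). The part of these cell types in the field differences was not tested.

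In all, 98 of 18625 tested probe sets (0.526%) passed the test, a linear model across all probe sets with limma and a Benjamini-Hochberg adjusted p under 0.05. CA3 was higher for 53 of them (0.285% of those tested) and lower for 45 (0.242%). The groups of 3 arrays did not overlap for any of the 98, a pattern seen in 14.9% of all tested probe sets. Of the 98, 96 differed more than 2-fold and 40 more than 4-fold, 19 of these higher and 21 lower in CA3. Without the adjustment, 1548 probe sets (8.31%) had a p under 0.05. A gene symbol was available for 73 of the 98, and these stood for 70 genes, 38 higher and 32 lower in CA3. Other tested probe sets of these genes numbered 23, of which 20 differed in the same direction and 3 in the opposite one, at 0.24 for Arnt2, 0.12 for Dclk1 and -0.23 for Nectin3.

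The number of calls moved with the arrays used and with the variance model. It was 0 when variances did not follow the mean intensity, with 1533 probe sets at an unadjusted p under 0.05. It was 47, 27 and 69 without CA1 control 1, 2 or 3. Without CA3 control 1, 2 or 3 it was 29, 24 and 96. The 98 kept their direction in these fits, which was fixed in advance because their control groups did not overlap. Of the 70 genes, 11 passed in all 6 of these fits: Pou3f1, Fibcd1, Mpped1, Cck, Itpka and Rasl11b, lower in CA3, and Ptgds, Chgb, Nptx1, Itgbl1 and Il16, higher in CA3. A further 12 passed in 4 or 5 fits and 41 in 1 to 3. The other 6, Dpysl5, Myh7, Sidt1, Snx7, Tmem229b and Ttc9, passed in none of them. With control 1 of both fields left out together, a fit added with the data in view, 5 probe sets were left, among them Mpped1 (-3.57), Ptgds (4.94) and Pou3f1 (-3.94).

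To look beyond single genes, 84 lists of genes were described, namely 14 of cell type markers, 31 of pathways and functions and 39 families found by symbol. At least 1 member passed in 35 of them and none in the other 49. In 29 of the 35 a lone member passed, and the most in a list was 5. Lists share genes, so a call can count in several, and 33 of the 70 genes stood in at least 1 list. Of the 10844 genes, each taken with its brightest tested probe set, 67 passed (0.618%), 36 higher (0.332%) and 31 lower in CA3 (0.286%). Most lists with a call thus held a lone called gene among members that did not pass.

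**Figure D2:**
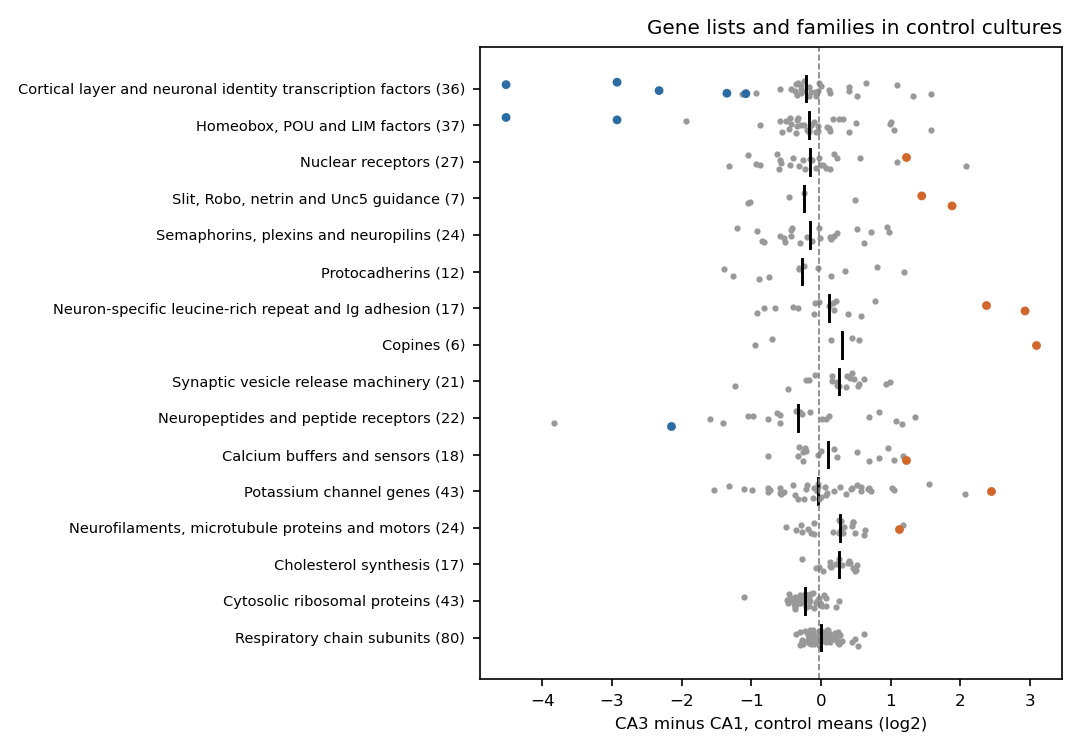
Difference between CA3 and CA1 control means for each measured gene (points) of 16 lists and families, in log2 units, with the number of genes in parentheses. Coloured points passed the test (blue lower, orange higher in CA3), black bars are list medians and the dashed line is the median of all 10844 genes (-0.03); ribosomal and respiratory chain genes lie close together, while the regulators and guidance genes hold few but large differences.

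Transcription factors that mark cortical layers and neuronal identity held the most calls of any list. Of 36 measured, 5 passed and all 5 were lower in CA3: Pou3f1, Bcl11b, Ldb2, Etv1 and Id2. The list had 10 members higher on average in CA3 and a median of -0.21 (-0.13 without CA3 control 2), against -0.03 over all genes. Bcl11b, a zinc finger repressor of projection neurons, read 15.09, 14.46 and 14.22 on CA1 controls 1 to 3 and 12.49, 12.63 and 11.68 in CA3 controls 1 to 3 by its brighter probe set. The 2 groups were well apart, and the difference was -2.32 ± 0.29 (SE, n = 3 and 3 arrays, limma adjusted p = 0.00748), with -3.04 by a dimmer probe set that also passed. Ldb2, a cofactor that links LIM-domain factors, read 11.46, 10.97 and 11.53 in CA1 and 8.22, 8.80 and 8.16 in CA3. No CA3 array came near a CA1 array, and the difference was 7.61-fold (-2.93 ± 0.36, limma adjusted p = 0.00748).

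Etv1, an ETS-domain factor, read 12.54, 12.86 and 12.56 in CA1 and 11.18, 11.47 and 11.25 in CA3, with a narrow spread in each field. The difference was -1.35 ± 0.20 (SE, n = 3 and 3 arrays, limma adjusted p = 0.0191), and its other 3 tested probe sets, at -1.20, -1.03 and -0.81, did not pass. Id2, which blocks basic helix-loop-helix factors by pairing with them, was 2.11-fold lower in CA3. Among wider families, 2 of 37 homeobox, POU and LIM factors passed (Pou3f1 and Ldb2), 1 of 27 basic helix-loop-helix factors (Id2), 1 of 52 zinc finger factors (Bcl11b) and 1 of 27 SOX, FOX and ETS factors (Etv1), each lower in CA3. Nuclear receptors had a median of -0.15, with 17 of 27 lower on average in CA3, but their 1 call, Nr4a3, was higher in CA3. This orphan receptor, an immediate early gene induced by neuronal activity, read 12.12, 12.34 and 12.24 in CA1 and 13.52, 13.56 and 13.27 in CA3, a difference of 1.21 ± 0.18 (SE, n = 3 and 3 arrays, limma adjusted p = 0.0158). It was the sole call among 16 immediate early genes, whose median was -0.10 and changed sign with the arrays used, from -0.58 without CA3 control 3 to 0.16 without CA1 control 3. The transcription cofactor gene Zfpm2, at 1.33, and the forkhead gene Foxp1, at -1.13, did not pass (limma adjusted p = 0.101 and 0.185).

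Promoter sequence was set beside these calls, because the list of regulators held the most of them. RefSeq sequence of build GRCr8 held a promoter for 49 of the 70 genes, 26 higher and 23 lower in CA3, and the 250 bases before the annotated start were searched on both strands. The E-box CAGATG, read on the other strand as CATCTG, a site type bound by basic helix-loop-helix factors, was in 6 of the 26 (23.1%) and in 3 of the 23 (13.0%), against 13.7% of 27457 promoters. The octamer ATGCAAAT of POU factors was in 0 of the 26 and 0 of the 23, against 1.50% of all promoters, and the ETS site CCGGAAGT likewise in 0 and 0, against 3.29%. The NR4A element AAAGGTCA was in 1 of the 26 (Lsm11) and 0 of the 23, against 1.11%, and the cyclic AMP element TGACGTCA in Ywhah among the higher and Plk2 among the lower genes, against 1.70%. None of these motifs is contained in another, and a match or its lack describes these letters in this window and nothing further. The 3 promoters below are those with an E-box whose genes had the smallest p, shown 5′ to 3′ on the strand of the gene, with the E-box in capitals. Mpped1 lies on the plus strand at chr7:116824504-116824753, Ptgds on the minus strand at chr3:28682979-28683228 and Chgb on the plus strand at chr3:140496462-140496711.
Mpped1: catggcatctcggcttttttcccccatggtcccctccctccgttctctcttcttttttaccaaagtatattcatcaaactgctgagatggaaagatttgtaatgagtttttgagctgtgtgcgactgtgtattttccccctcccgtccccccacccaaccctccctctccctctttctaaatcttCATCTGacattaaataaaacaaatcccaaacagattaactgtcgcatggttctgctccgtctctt
Ptgds: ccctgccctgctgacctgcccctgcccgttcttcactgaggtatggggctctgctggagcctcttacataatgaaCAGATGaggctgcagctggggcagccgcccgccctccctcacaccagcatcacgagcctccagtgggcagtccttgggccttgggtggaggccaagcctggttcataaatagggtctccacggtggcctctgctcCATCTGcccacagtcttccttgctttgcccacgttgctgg
Chgb: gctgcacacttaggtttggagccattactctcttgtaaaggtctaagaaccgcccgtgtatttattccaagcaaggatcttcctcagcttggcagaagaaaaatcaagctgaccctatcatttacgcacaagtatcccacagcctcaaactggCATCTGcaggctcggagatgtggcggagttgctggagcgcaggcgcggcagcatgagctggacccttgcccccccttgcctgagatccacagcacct
The Mpped1 promoter, of the gene lower in CA3, holds 1 E-box and 45.2% G and C, that of Ptgds holds 2 and 62.0%, and that of Chgb holds 1 and 53.6%, where the median promoter has 52.0%.

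Itpka, Itpr1 and Ryr2, which act on calcium held in internal stores, passed in different directions. They were set together after their values were seen and are none of the 84 lists. Itpka, a kinase that removes the second messenger inositol trisphosphate and sits on dendritic spines, read 15.25, 15.15 and 14.92 on CA1 controls 1 to 3 and 13.56, 13.20 and 12.83 in CA3 controls 1 to 3. The fields did not overlap, and the difference was -1.91 ± 0.20 (SE, n = 3 and 3 arrays, limma adjusted p = 0.00404), or 3.75-fold. Itpr1, the receptor through which that messenger opens the store, read 14.62, 14.88 and 14.47 in CA1 and 13.51, 13.60 and 13.09 in CA3. It too was higher on every CA1 array (-1.26 ± 0.19, limma adjusted p = 0.0193). Ryr2, the ryanodine receptor that opens the store in response to calcium itself, read 12.37, 12.42 and 12.02 in CA1 and 13.93, 13.63 and 13.12 in CA3. Here every CA3 array was the higher (1.29 ± 0.23, limma adjusted p = 0.0467), but with an array left out Ryr2 passed in 1 and Itpr1 in 2 of the 6 fits. Of the relatives measured, Ryr3 differed by -0.67, Ryr1 by 0.13, Itpkb by 0.34 and Itpr2 by -0.67 and 0.19 at 2 probe sets, and none passed.

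Among 18 calcium buffers and sensors the neurocalcin Ncald passed, with 14.02, 14.36 and 14.43 in CA1 and 15.49, 15.55 and 15.42 in CA3. The CA3 arrays were close together and lay above all CA1 arrays (1.22 ± 0.16, SE, n = 3 and 3 arrays, limma adjusted p = 0.00967). Of 13 phospholipase C and related genes, Plcxd2, which carries the catalytic X domain, was higher in CA3 at both of its called probe sets, by 2.40 and 2.33. Of 49 Ras family genes and regulators, the small GTPase Rasl11b was lower, by 2.18, with 14.17, 13.51 and 13.51 in CA1 and 11.51, 11.46 and 11.69 in CA3. None of 19 calcium-dependent kinases and phosphatases passed, Camkk1 among them at 1.12 (limma adjusted p = 0.089), nor any of 19 genes of cyclic nucleotide signalling. Each of these 2 lists had 3 members at an unadjusted p under 0.05 in limma, against 8.75% of all genes. Plk2, a kinase that neuronal activity induces, was 2.04-fold lower in CA3.

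**Figure D3:**
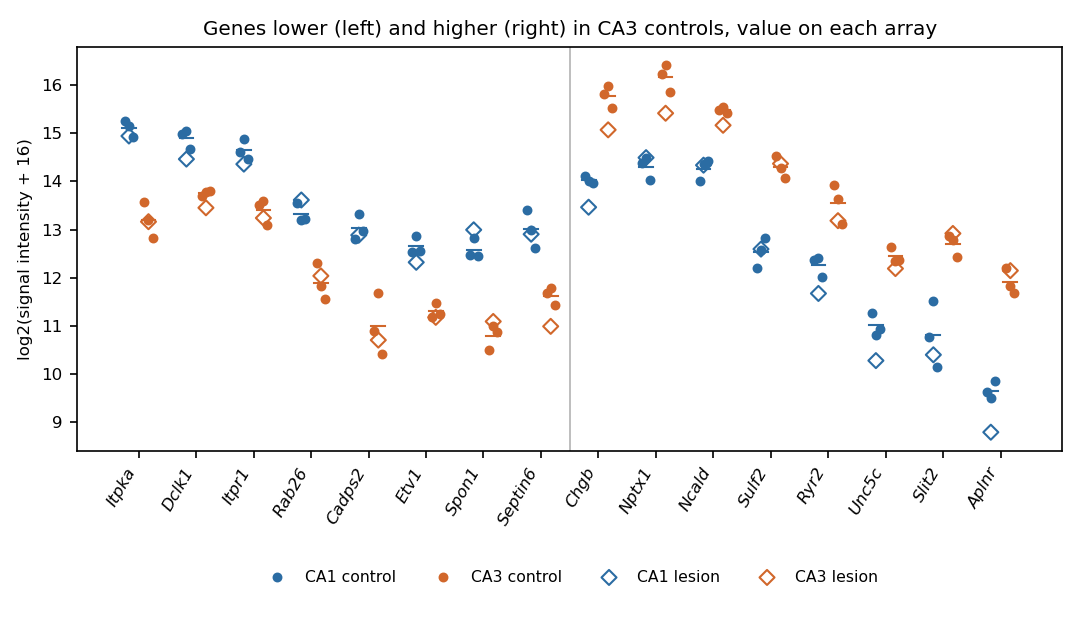
Log2 intensity of 16 genes on each control array (filled circles; bars are means of 3 arrays) and on the lesion array of each field (open diamonds), CA1 in blue and CA3 in orange. On the left are genes lower and on the right genes higher in CA3; the control circles of the fields do not overlap for any gene shown, as for Itpka (14.92 to 15.25 against 12.83 to 13.56).

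Guidance and adhesion genes held large differences in few members. Slit2, a secreted axon repellent that binds Robo receptors, read 10.76, 11.52 and 10.15 in CA1 and 12.86, 12.78 and 12.44 in CA3. The CA1 arrays were spread more widely than the CA3 arrays and stayed below all of them (1.88 ± 0.32, SE, n = 3 and 3 arrays, limma adjusted p = 0.0367), and a second tested probe set, at 1.90, did not pass. Unc5c, a receptor for netrin, read 11.27, 10.82 and 10.95 in CA1 and 12.64, 12.35 and 12.38 in CA3, again with no overlap (1.45 ± 0.22, limma adjusted p = 0.0203). The other 5 measured genes of the Slit, Robo, netrin and Unc5 list did not pass, with Ntng1 at -1.02, Dcc at -1.05, Slit1 at -0.46, Slit3 at -0.25 and Robo2 at 0.49. The list median was -0.25, and 0.44 without CA3 control 3. None of 24 semaphorins, plexins and neuropilins passed, Nrp1 at 0.95 among them, nor any of 9 ephrins and Eph receptors. At an unadjusted p under 0.05 in limma were 3 of the 24 and 2 of the 9, against 8.75% of all genes.

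Of 17 neuronal adhesion genes with leucine-rich repeats or immunoglobulin domains, Islr2 and Islr passed, both higher in CA3, at 7.61-fold and 5.19-fold. They are direct neighbours in the order of protein-coding RefSeq genes of GRCr8, with 0 such genes between them. Nectin3, an adhesion molecule known for CA3, and Plcxd2 also lie close, with 1 protein-coding gene between them, and both were higher in CA3. Nectin3 read 10.16, 10.39 and 10.38 in CA1 and 12.02, 12.23 and 11.77 in CA3. The fields were clearly apart at this probe set (1.69 ± 0.24, SE, n = 3 and 3 arrays, limma adjusted p = 0.0138), but not at the other one. The other 4 measured nectins and nectin-like genes, Cadm3 (0.61), Cadm1 (0.22), Nectin1 (-0.30) and Nectin2 (-0.58), did not pass. Cpne4, a copine that binds membranes when calcium rises, was 8.45-fold higher in CA3 (3.08, and 2.49 without CA1 control 2), while Cpne8 at -0.94, Cpne2 at -0.70, Cpne6 at 0.15, Cpne7 at 0.45 and Cpne5 at 0.54 did not pass.

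Adgrl2, a latrophilin and the lone call among 11 neurexins, neuroligins and their partners, read 12.03, 12.20 and 11.57 in CA1 and 9.47, 7.96 and 8.26 in CA3. Every CA1 array lay above every CA3 array (-3.37 ± 0.42, SE, n = 3 and 3 arrays, limma adjusted p = 0.00748), while its relative Adgrl1 was at -0.49 and did not pass. The neurexin Nrxn3 at 1.16 and the cerebellin Cbln1 at -2.11 did not pass. Of the protocadherins, Pcdh20 was higher in CA3 by 1.36 at 1 probe set, and by 1.20 at its brightest probe set, which did not pass (limma adjusted p = 0.060). In the matrix and at the cell surface, Spon1, the secreted F-spondin, read 12.47, 12.82 and 12.44 in CA1 and 10.50, 10.99 and 10.87 in CA3. It was lower in CA3 on every array (-1.79 ± 0.22, limma adjusted p = 0.00748). Sulf2, which trims sulfate from heparan sulfate chains, was 3.37-fold higher in CA3 and Itgbl1, a secreted protein with integrin beta-like repeats, 5.26-fold higher. Itgbl1 read 9.30, 9.40 and 9.63 in CA1 and 11.90, 11.81 and 11.79 in CA3 and was thus close to constant within CA3.

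Synaptic and secretory genes were called singly. Of 21 genes of the vesicle release machinery 16 were higher on average in CA3, with a median of 0.26 (0.44 without CA3 control 3), but 0 passed in limma (4 of the 21 at an unadjusted p under 0.05, against 8.75% of all genes), and the nearest, Syn2 (1.00), had a limma adjusted p of 0.077. These means stood beside the pan-neuronal markers, of which 9 of 9 were higher on average in CA3, and the part of these in it was not tested. Chgb, the granule protein chromogranin B, read 14.12, 14.01 and 13.97 in CA1 and 15.82, 15.99 and 15.52 in CA3. The CA1 arrays were nearly equal and all CA3 arrays lay above them (1.74 ± 0.16, SE, n = 3 and 3 arrays, limma adjusted p = 0.00305). Nptx1, a secreted pentraxin that clusters AMPA receptors, read 14.39, 14.49 and 14.03 in CA1 and 16.24, 16.41 and 15.86 in CA3, likewise with no overlap (1.87 ± 0.19, limma adjusted p = 0.00344). Cadps2, which primes dense-core vesicles for release, and Rab26, a GTPase of vesicles, went the other way, at -2.03 ± 0.31 and -1.43 ± 0.22 (limma adjusted p = 0.0219 and 0.0251).

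Cck, the neuropeptide cholecystokinin, was the sole call among 22 neuropeptides and peptide receptors, whose median was -0.33 (between -0.59, when CA1 control 3 was left out, and -0.13, when CA3 control 3 was). It read 15.05, 14.83 and 14.44 in CA1 and 12.75, 12.95 and 12.16 in CA3, and was 4.46-fold lower in CA3, with no overlap (-2.16 ± 0.24, SE, n = 3 and 3 arrays, limma adjusted p = 0.00453). Cck also marks a class of interneurons, and the summed intensity of the 8 measured interneuron markers, Cck included, was 74437 to 130976 in CA1 and 56356 to 70190 in CA3. Of these 8, 2 were higher on average in CA3, and the median was -0.41 (-0.16 without CA1 control 1 and -0.71 without CA1 control 3). The others did not pass, from Calb2 at 0.23 to Vip at -1.60, and their part in the result was not tested. Htr5b, a serotonin receptor, was the lone call of 13 receptors for monoamines, acetylcholine and cannabinoids (5.04-fold lower in CA3). Slc17a6, a vesicular glutamate transporter, was the lone call of 9 glutamate and GABA transporters (4.27-fold lower), whereas Slc17a7, its relative, was at 0.67 and did not pass. Slc17a6 also served as a marker of the subiculum, whose 3 measured markers summed to 15660 to 21299 in CA1 and 10941 to 14957 in CA3, and the part of subicular tissue was not tested.

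Among ion channels, 1 of 43 potassium channel genes passed. Kcnq5, a subunit of M-type channels, read 11.42, 11.85 and 11.00 in CA1 and 14.40, 13.91 and 13.28 in CA3. The CA3 arrays were all above the CA1 arrays (2.44 ± 0.30, SE, n = 3 and 3 arrays, limma adjusted p = 0.00748), though not at its other probe set (0.29). The channel genes had a median of -0.05 (0.09 without CA3 control 3), and members on the other side, Kcnj4 at -1.54 and Kcnab1 at -1.33, did not pass. None of 13 calcium channel genes, 8 sodium channel genes, 13 ionotropic glutamate receptor subunits, 5 metabotropic glutamate receptors or 9 GABA receptor subunits passed, where 0.618% of all genes did. In that order, 3, 2, 3, 0 and 3 of them had an unadjusted p under 0.05 in limma, against 8.75% of all genes. The lack of calls thus does not show that these families are alike in the fields. Aplnr, the receptor for the peptide apelin, read 9.63, 9.50 and 9.86 in CA1 and 12.20, 11.83 and 11.69 in CA3, with no overlap (2.25 ± 0.27, limma adjusted p = 0.00683). The gene for its ligand, Apln, was at -0.25 and did not pass.

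Structural genes added a few more. Nefl, the light neurofilament chain and 1 of 24 neurofilament, microtubule and motor genes to pass, was higher in CA3 at 2 probe sets, by 1.13 and 1.12, while Nefm at 1.18 and Nefh at 0.63 did not pass (limma adjusted p = 0.0512 and 0.503). Of the 24, 16 were higher on average in CA3, with a median of 0.27 (0.13 without CA1 control 3 and 0.43 without CA3 control 3). Septin6, a filament-forming GTPase, was 2.60-fold lower in CA3 and the call among 14 septins and spectrins. Dclk1, a kinase that binds microtubules, read 14.99, 15.05 and 14.67 in CA1 and 13.69, 13.77 and 13.80 in CA3. Its CA3 arrays were close together below all CA1 arrays (-1.15 ± 0.16, SE, n = 3 and 3 arrays, limma adjusted p = 0.0138), while its other 2 tested probe sets, at -0.32 and 0.12, did not pass. Myh7, the slow myosin heavy chain of heart and muscle, was 10.3-fold lower in CA3, the call among 10 muscle-type genes. It passed in none of the fits with an array left out, and cross-hybridisation of its close relative was not tested.

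Few metabolic genes passed. Ptgds, a prostaglandin D synthase of the meninges and of some brain cells, read 6.94, 9.31 and 9.09 in CA1 and 14.05, 14.24 and 14.05 in CA3. The CA3 arrays were almost identical, and CA1 control 1 was the lowest of all (5.66 ± 0.52, SE, n = 3 and 3 arrays, limma adjusted p = 0.00305). Leaving out CA1 control 1 gave 4.91. The other 11 measured prostaglandin genes did not pass, with Ptgs2 at 1.50 nearest. Of the meningeal markers Slc6a13 (1.97), Aldh1a2 (1.78) and Dcn (-1.99, also in the CA1 marker list) did not pass either. Their part in the Ptgds difference was not tested. Lpl, the lipase of lipoproteins, was 5.84-fold higher in CA3 and the call among 21 lipid handling genes, and Acsl4, which activates long-chain fatty acids, was 2.09-fold higher. Cst6, a cystatin that inhibits cysteine proteases, was 8.77-fold higher, alone among 18 cathepsins and cystatins.

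Further genes that passed fall outside these groups. Nnat, neuronatin, a small membrane protein from an imprinted gene, read 14.39, 13.84 and 12.62 in CA1 and from 15.91 to 16.61 in CA3. Its CA1 arrays were spread widely but stayed below all CA3 arrays (2.56 ± 0.38, SE, n = 3 and 3 arrays, limma adjusted p = 0.0191). Il16, a gene for a cytokine precursor, read 10.85, 10.31 and 10.92 in CA1 and 12.57, 12.72 and 13.01 in CA3, also with no overlap (2.07 ± 0.24, limma adjusted p = 0.00609). Higher in CA3 were in addition the membrane protein gene Tmem71 (10.6-fold), the tyrosine phosphatase Ptpn3 (4.74-fold), Klhl2 (4.06-fold), a substrate adaptor of ubiquitin ligases, and Tagln3 (3.17-fold). Smaller were the differences of Snx7, a sorting nexin (2.72-fold), Rnf182, a ubiquitin ligase (2.34-fold), Gpr158, an orphan receptor (2.23-fold), the kinase Cdk14 (2.14-fold) and Ywhah, the eta form of the 14-3-3 adaptors (1.94-fold).

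On the CA1 side, Fibcd1, which binds acetylated sugars, read 13.40, 13.22 and 12.97 in CA1 and 9.64, 10.09 and 8.29 in CA3. Mpped1, a metallophosphoesterase, read 16.20, 15.83 and 15.08 in CA1 and 12.27, 12.05 and 11.72 in CA3. Neither gene had a CA3 array near its CA1 arrays, and the differences were 14.5-fold and 12.9-fold (limma adjusted p = 0.00404 and 0.00144). Gpr161, a receptor of primary cilia, was 4.35-fold lower in CA3, the ankyrin repeat gene Ankrd63 5.27-fold, and Diaph3, a formin that builds actin filaments, 4.18-fold. Dpysl5, a collapsin response mediator, was 2.55-fold lower, and Arnt2, a basic helix-loop-helix partner factor, 2.40-fold at the probe set that passed.

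Housekeeping families held no calls. Of 43 cytosolic ribosomal protein genes 6 were higher on average in CA3 and 37 lower, with a median of -0.23 against -0.03 over all genes and 0 calls. The sign of this median held in every fit tried (-0.29 to -0.13), and 8 of the 43 had an unadjusted p under 0.05 in limma, against 8.75% of the 10844 genes. Of 17 cholesterol synthesis genes 14 were higher on average in CA3, with a median of 0.26 (0.11 to 0.35 over the fits), 0 calls and 3 members at an unadjusted p under 0.05. Respiratory chain subunits were balanced, with 39 of 80 higher and a median of -0.01, as were proteasome subunits, with 19 of 37 higher and a median of 0.01, and the sign of both medians changed with the array left out. Neither family had a call in limma, and 0 respiratory chain genes and 1 proteasome gene had an unadjusted p under 0.05.

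The lesion arrays were then set beside the field difference of the controls. Of the 98 probe sets, 97 (99.0%) had the same sign in the CA3 lesion array minus the CA1 lesion array, against 56.9% of all 18625 tested. Past 2-fold in the same direction were 72 (73.5%), against 8.62% of all tested. Among the 1447 probe sets that differed more than 2-fold in the controls without passing the test, 57.4% kept their sign and 22.7% were past 2-fold, and their median log2 level was 8.95 against 12.26 for the 98. All 73 probe sets with a gene symbol kept their sign, and the exception was a probe set without one. Of the 40 over 4-fold in the controls, 38 were past 2-fold in the lesion arrays. With the genes chosen in a fit of the 6 control arrays alone, into which no lesion array entered apart from the brightness filter, 109 probe sets passed, 97 of them shared with the 98, and 107 of the 109 (98.2%) kept their sign. With 1 lesion array per field these are values without a replicate check. Both lesion arrays carry number 1 in their titles, as does control 1 of each field, and the part of the number was not tested.

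**Figure D4:**
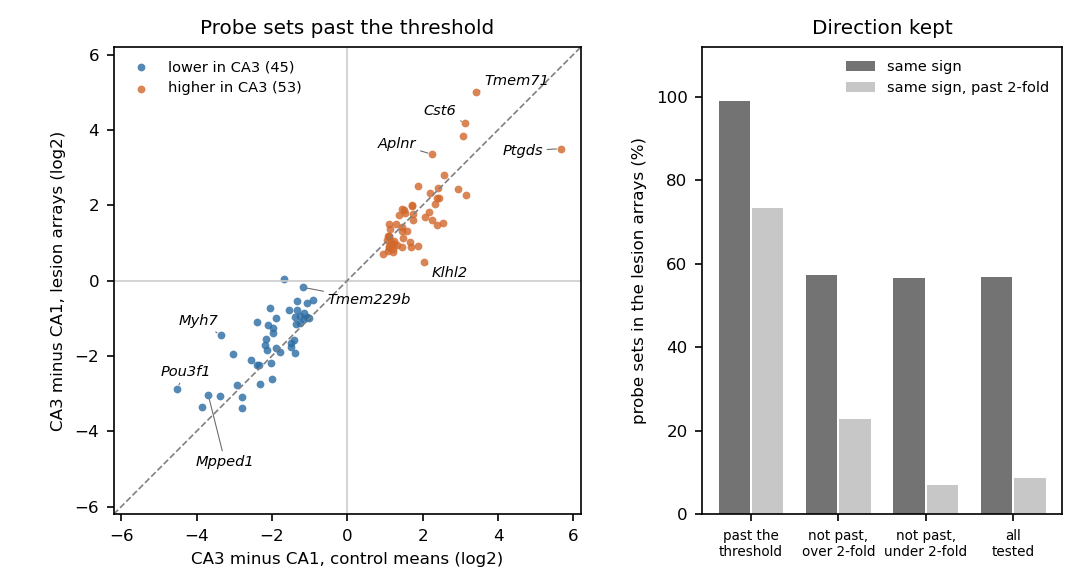
Left, CA3 minus CA1 in the lesion arrays (vertical) against the same difference in the controls (horizontal) for the 98 probe sets that passed, in log2 units, with the line of equality dashed; right, share of probe sets that kept the sign of the control difference in the lesion arrays (dark) and that were also past 2-fold (light). Of the 98, 97 kept their sign, against 56.9% of all tested.

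In size, the difference along the direction of the controls had a median of 1.52 in the lesion arrays and 1.73 in the controls, with a median ratio of 0.868. It was smaller in the lesion arrays for 66 of the 98 and larger for 32, against 12396 and 6229 of all 18625 tested. The 98 were chosen by their control difference, so these counts do not show that the lesion shrinks it. Across the 98 probe sets, which share arrays and are not independent, Pearson's r was 0.951 and Spearman's rho 0.939, both given as a description. They largely reflect the shared sign. Within the 53 higher in CA3, r was 0.756 and rho 0.752, and within the 45 lower, 0.761 and 0.771. Over all tested probe sets r was 0.157 and rho 0.156. In limma, which takes the lone lesion arrays to vary like the controls, 0 probe sets (0%) passed for CA3 against CA1 in the lesion arrays, with a smallest adjusted p of 0.0948. Without adjustment, 943 of 18625 had a p under 0.05, and 83 of the 98. The test of the change itself, the lesion difference minus the control difference, also passed for 0 probe sets (0%), with 576 of all and 5 of the 98 at an unadjusted p under 0.05. A p that misses the threshold does not show that the differences are equal.

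Each lesion array was also placed between the means of the 2 fields. The CA1 lesion array was nearer to the CA1 control mean than to the CA3 control mean for 95 of the 98, and within the range of the CA1 controls for 42. The CA3 lesion array was nearer to its own field for 89, within its own control range for 39 and within the CA1 range for 1. Among named genes, the lesion array of a field was nearer to the other field for Myh7, Ankrd63, Ttc9, Tmem229b, Id2, Gpr158, Nr4a3, Armcx3 and Islr. Myh7 read 6.60, 7.70 and 6.74 in CA3 controls 1 to 3 and 9.22 in the CA3 lesion array, where the CA1 controls had 10.48, 10.63 and 10.03. The CA3 lesion array thus lay above all CA3 controls and below all CA1 controls.

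For the genes described above, Itpka differed by -1.78 in the lesion arrays (-1.91 in controls), Itpr1 by -1.12 (-1.26) and Ryr2 by 1.51 (1.29). Slit2 differed by 2.52 (1.88), Unc5c by 1.91 (1.45) and Aplnr by 3.35 (2.25), and for Aplnr the CA1 lesion array, at 8.80, was below all CA1 controls. Ptgds differed by 3.50 (5.66), and its CA1 lesion array, at 10.69, was above all CA1 controls. Also smaller in the lesion arrays were Pou3f1 at -2.87 (-4.52), Nptx1 at 0.92 (1.87), Nectin3 at 0.89 (1.69), Klhl2 at 0.48 (2.02) and Tmem229b at -0.18 (-1.19). Largest in the lesion arrays among the named genes that had passed were Tmem71 at 5.01 (3.41), Cst6 at 4.18 (3.13) and Cpne4 at 3.83 (3.08). None of these changes passed the test of the change.

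Lists were set side by side in the same way. Of the 84, 56 had a median of the same sign in the lesion arrays and 28 one of the opposite sign. The CA1 markers had a median of -1.84 in the lesion arrays (-2.29 in controls), with 7 of 7 on the same side, and the CA3 markers 0.89 (0.87), with 6 of 7. The identity transcription factors had -0.30 (-0.21), the vesicle release genes 0.42 (0.26), the cholesterol synthesis genes 0.37 (0.26) and the ribosomal protein genes -0.11 (-0.23), against -0.01 over all genes. All 17 leucine-rich repeat and immunoglobulin adhesion genes kept their sign, where 58.2% of all genes did. Their list median was 0.004 (0.11), with 9 of the 17 higher in CA3 both times, so the list as a whole had no common direction. Of opposite sign was the median of the 4 tested endothelial and mural markers, at 1.13 (-0.93), of which 0 had an unadjusted p under 0.05 in limma in the controls. So were those of the 2 tested choroid plexus markers, at -0.13 (0.92), and the receptors for monoamines, acetylcholine and cannabinoids, at 0.24 (-0.33). The ionotropic glutamate receptor subunits also changed sign, at 0.21 (-0.12). Semaphorins with plexins and neuropilins, and collagens, kept their sign in 11 of 24 genes each. Microglia markers summed to 172108 on the lesion array of CA1 and 122892 on that of CA3, above every control, and their part in the lesion values was not tested.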

How the data were processed

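Per the labels, RNA from rat hippocampal slice cultures was measured on 8 arrays, and titles alone gave the groups. Each deposited value is a linear signal intensity of a probe set on an array. Every array had a 2% trimmed mean close to 2501, so the values were taken to be scaled by the authors. The software is not given in the sources used here, nor is the way probes were summarised. Precision is limited by the number of arrays. Of 31099 probe sets, 57 AFFX controls and those under the 40th percentile of mean log2(intensity + 16) were left out, which left 18625. Gene names came from the platform annotation (20832 probe sets with 1 symbol, 436 with several, 9831 with none; 20764 matched a rat gene of RefSeq GRCr8).

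In limma 3.58.1 (R 4.3.3), all 8 arrays entered a model of 4 group means, with variances that follow the mean intensity and Benjamini-Hochberg adjustment over all tested probe sets. The fit was tested on simulated data. A list takes each gene by its brightest tested probe set. Genes named are those that passed, at most 4 others of a list by smallest p, and any member of a family of 12 or fewer. The members and lists were chosen with earlier results of these data known, and a few family patterns were corrected after values were seen. The fits were repeated after quantile normalisation, with a pseudocount of 1 or 64, without the filter or with it at the 60th percentile, without the intensity trend, without cross-hybridising probe sets, with the replicate number as a block, on the 6 controls alone, without each control array in turn, and without control 1 of both fields, the last chosen after seeing the data.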

Additional observations from a re-analysis of the deposited data

How the results depend on the processing

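The 98 calls between CA3 and CA1 controls became 0 when variances did not follow the mean intensity (1533 at an unadjusted p under 0.05), 358 with the replicate number as a block, and 24 to 96 with 1 control array left out. Without control 1 of both fields 5 were left. The other fits gave 88 to 110, and all 98 kept their direction in every fit that tested them. With control arrays left out this was fixed in advance, because the control groups did not overlap for any of the 98. The share of calls with the same sign in the lesion arrays was 100% after quantile normalisation, 93.0% with the block (333 of 358), 97.9% to 100% with 1 control array left out and 100% without control 1 of both fields. No share could be formed without the intensity trend. The lists with at least 1 call, 35, became 0 without the trend, 55 with the block, 13 to 35 with 1 array left out and 5 without control 1 of both fields. The change of the field difference with the lesion had 0 limma calls in each fit, with 253 to 1112 probe sets at an unadjusted p under 0.05.

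Arrays of the same number correlated in their deviations at 0.155, 0.0601 and 0.306, and each correlated best with its own number, a hint from the data and not from the design. The labels do not say whether arrays of the same number belong together, and the main fit did not pair them. Whether they do was not settled here. All 98 calls were among the 358 of the block. The number of arrays and signal near background limit these results. The probe sets over 2-fold that did not pass had a lower median level than those that did.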

Other observations

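Several genes of the lists lay near the threshold without passing it, and their values are given here as a description. Nts, the neuropeptide neurotensin, read 12.47, 11.97 and 10.08 in CA1 and 7.19, 8.93 and 6.90 in CA3, a difference of -3.84 in the controls (limma adjusted p = 0.0684) and of -4.86 in the lesion arrays. Vip, a peptide of interneurons, was at -1.60 (limma adjusted p = 0.0574) and -1.87 in the lesion arrays. The tubulin gene Tuba8 was at 2.28 and 3.20, and the kainate receptor subunit Grik4 at 1.62 and 3.15, with limma adjusted p in the controls of 0.102 and 0.142.

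Other genes that did not pass are given by their difference in the controls and then in the lesion arrays. Homer3, a scaffold that links metabotropic glutamate receptors to calcium stores, was at 1.02 and 1.08, Fgf13, a partner of sodium channels, at 1.08 and 1.01, and the somatostatin receptor Sstr3 at 1.16 and 1.04. Lower on average in CA3 were Adcyap1r1, the receptor for the peptide PACAP, at -0.98 and -1.19, the adenylyl cyclase Adcy2 at -0.90 and -1.35, and the serotonin receptor Htr2c at -1.49 and -1.25. The limma adjusted p of these 6 in the controls ran from 0.089 to 0.154, and the control arrays of the fields did not overlap for any of them, as for 14.9% of all tested probe sets.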
